A study of Homo sapiens with 12 samples.

Results

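The genes described here are those of the cytosolic ribosomal proteins and of paralogs with like symbols, whose place in the ribosome was not checked. They were taken by symbol, as RPL or RPS followed by a number, together with RPLP0, RPLP1, RPLP2 and RPSA, without pseudogenes and without genes on chromosome Y. This rule found 85 of the 51141 rows of the count table, and no measured value entered it. By symbol, 53 were assigned to the large (60S) subunit and 32 to the small (40S) subunit. The cells were EA.hy926, a single human line that arose from the fusion of an umbilical vein endothelial cell with an A549 lung carcinoma cell. There were 4 groups of 3 libraries. Control cells received no drug and stayed at normal oxygen, and hypoxia cells were kept for 8 h in 1% oxygen. TEPA cells received 50 µM TEPA, a copper chelator, for 16 h and then spent 8 h at normal oxygen, and TEPA+hypoxia cells received the same drug and spent those 8 h in 1% oxygen. The labels do not say whether replicates were separate cultures, so p-values measure only the spread between these libraries.

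A ribosome holds 1 copy of nearly every ribosomal protein, and cells keep the proteins at matched amounts. The mRNAs of these proteins are among the most abundant in a growing cell, and most of them begin with a cytosine and an unbroken run of pyrimidines, the 5′ terminal oligopyrimidine (TOP) tract. The protein LARP1 binds that tract, and the kinase complex mTORC1, which low oxygen is known to inhibit, controls translation through it. Poly(A) RNA was measured here, so the values are mRNA levels and say nothing of translation.

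RefSeq (GRCh38.p14) lists a start for 68 of the 85 genes. In 55 of the 68 (80.9%) a C followed by at least 4 further pyrimidines began within 5 bases of that start, on the gene's strand, against 28.4% of all protein-coding genes in the same table. The motif CTTTCC, which can lie inside such a run, was found within 20 bases on either side of the start in 30.9% of these genes and in 2.82% of all coding genes (gene's strand only). The windows below run from 10 bases before the start to 20 bases from it, with the pyrimidine run in capitals. They show 6 genes at the ends of the response described below that carry the run, and 3 paralogs that do not. The run does not divide paralogs from the rest: RPS4X, RPS15 and RPS29 also lack it, and the paralog RPL22L1 carries it.
RPL36 (chr19:5690285-5690314, + strand): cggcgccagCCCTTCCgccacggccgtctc
RPLP2 (chr11:809957-809986, + strand): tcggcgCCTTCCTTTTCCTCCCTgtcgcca
RPS21 (chr20:62387093-62387122, + strand): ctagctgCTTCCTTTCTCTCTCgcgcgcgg
RPL38 (chr17:74203668-74203697, + strand): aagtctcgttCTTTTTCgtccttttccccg
RPL36A (chrX:101391001-101391030, + strand): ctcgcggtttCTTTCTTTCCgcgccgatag
RPSA (chr3:39406710-39406739, + strand): tgccgcctgtCTTTTCCgtgctacctgcag
RPL7L1 (chr6:42879606-42879635, + strand): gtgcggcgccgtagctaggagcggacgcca
RPS27L (chr15:63157458-63157487, − strand): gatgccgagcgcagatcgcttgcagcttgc
RPL26L1 (chr5:172958719-172958748, + strand): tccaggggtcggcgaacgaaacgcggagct
RPL36A, which fell in hypoxia, and RPL36, which had the highest value there, both begin with the run. A match is a description of these letters, and the start used in these cells was not measured.

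Library totals ran from 13406858 to 24778944 counts. Levels are given as CPM, counts scaled to library size with TMM factors (0.772 for hypoxia 2, 0.838 for hypoxia 3, between 1.03 and 1.08 for the rest), and 3 counts in a library correspond to 0.118 to 0.267 CPM (counting error only). Over all genes, hypoxia 2 and 3 lay far from the remaining 10 libraries: a leading component with 80.9% of the variance placed them at 110.0 and 92.2, with hypoxia 1 at 10.7 and the others between -47.0 and -7.12. Counts of calls and most named genes are also given without them. Sums over cell type markers, among them those of the line's own endothelial and epithelial lineages, differed in these 2 libraries. The 10 epithelial markers summed to 15686 to 18334 CPM in hypoxia 2 and 3 and to 5590 to 7866 CPM elsewhere, with CDH1 and ELF3 at no more than 3 counts in every library. The 12 endothelial markers summed to 5026 to 5459 CPM against 3247 to 3783, with CLDN5 and EMCN at no more than 3 counts. The 10 fibroblast and mural markers summed to 45.4 to 53.5 CPM against 82.5 to 107, with COL3A1, DCN, LUM and PDGFRA at no more than 3 counts. The 10 leukocyte markers summed to 190 to 204 CPM against 149 to 185, with PTPRC, CD3E, ITGAM, NKG7 and MS4A1 at no more than 3 counts. A sum is weighted to the most abundant genes. In hypoxia against control, 4 of 10 tested endothelial markers had positive log2 fold changes and 6 negative (median -0.10). It was 3 and 2 of 5 epithelial, 1 and 2 of 3 fibroblast and mural, and 1 and 1 of 2 leukocyte markers. The part of these differences in the results below was not tested.

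Of the 85 genes, 81 had enough counts to be tested. RPL10L and RPL39L, both paralogs best known from testis, were listed at 0 in all libraries. RPL3L, the paralog of striated muscle, was close to 0, and RPL36AL had at most 3 counts in any library. The authors' counting and annotation are not known, so counts near 0 need not mean that the mRNA was absent. RPS29 (3 to 15 counts a library) and RPL26L1 were tested at very low counts. Per kilobase of transcript, RPLP1 and RPLP0, which form the acidic stalk that recruits elongation factors, stood highest in control, at 1961 ± 287 and 1889 ± 165 CPM per kb (SD, n = 3). RPL19 followed at 1778 ± 180, RPS19 at 1556 ± 218 and RPS2 at 1531 ± 123 CPM per kb. Neighbours in that order overlapped between their control libraries. The lowest tested levels were those of RPL26L1 (0.660 ± 0.150 CPM per kb), RPS29 (0.790 ± 0.263) and RPS28 (6.33 ± 0.890).

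The low level of RPS28 came with high counts on a processed pseudogene row of the same family, and no source used here states how the authors' counting divided reads between parent and copy. The RPS28 row held 91 to 239 counts a library and RPS28P7 held 3363 to 16701, so that 97.5% of the counts of that family lay on pseudogene rows. The share was 94.2% for RPL36A, 90.5% for RPL21, 88.6% for RPL39, 72.6% for RPL41, 64.3% for RPL9 and 55.4% for RPS26. In 54 families it was under 5%. Values for those 7 families, and the order of levels among them, are uncertain for that reason. RPS29 held 121 counts over all libraries and its pseudogene rows 15, so its low level had no such counterpart. How its reads were counted is not known, and its level is uncertain too.

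Together the 85 genes took 4.26%, 3.79% and 4.64% of the counts of the control libraries and 4.01%, 4.37% and 4.17% of the TEPA libraries. In hypoxia they took 5.04%, 9.89% and 8.54%, and in TEPA+hypoxia 3.99%, 3.96% and 3.16%. All 3 hypoxia libraries lay above all control libraries, and all 3 TEPA+hypoxia libraries lay below all TEPA libraries. The means were 4.23 ± 0.42% in control, 7.82 ± 2.499% in hypoxia, 4.19 ± 0.18% in TEPA and 3.70 ± 0.47% in TEPA+hypoxia (SD, n = 3). An exact two-sided permutation test gave p = 0.1, the smallest that 3 against 3 allows, for hypoxia against control, TEPA+hypoxia against TEPA and TEPA+hypoxia against hypoxia, and p = 0.9 for TEPA against control (Benjamini-Hochberg over the 4 comparisons 0.133, 0.133, 0.133 and 0.9). A share of bulk counts cannot tell more ribosomal protein mRNA in a cell from less of other mRNA.

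**Figure D1:**
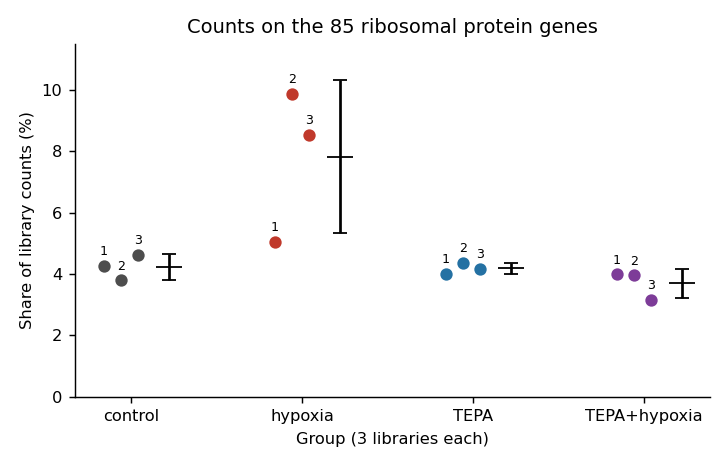
Share of each library's counts on the 85 ribosomal protein genes (y axis, percent) in the 4 groups; coloured points are libraries with their replicate number, and the black bar is the mean with its SD (n = 3). Hypoxia 2 and 3 sit at 9.89% and 8.54%, and the other 10 libraries lie between 3.16% and 5.04%.

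The balance between the subunits moved little. Counts on large subunit genes were 1.59 ± 0.018 times those on small subunit genes in control, 1.56 ± 0.0055 in hypoxia, 1.57 ± 0.0078 in TEPA and 1.58 in TEPA+hypoxia. The ratio ran from 1.55 to 1.61 over the 12 libraries, while the summed share ran from 3.16% to 9.89%. An exact two-sided permutation test of hypoxia against control gave p = 0.1 for this ratio, the smallest possible (Benjamini-Hochberg 0.2).

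In hypoxia against control, 75 of the 81 tested genes rose and 2 fell, with a median log2 fold change of 1.20 (median of all 14447 tested genes -0.01). Calls are at a Benjamini-Hochberg adjusted p under 0.05 over all tested genes in edgeR's quasi-likelihood test. Over all genes, 29.4% were called higher and 27.8% lower. Of the 49 tested large subunit genes 45 rose (median 1.21), and of the 32 small subunit genes 30 rose (median 1.20). All 3 hypoxia libraries lay above all 3 control libraries for 74 of the 81 genes, against 27.4% of all genes, and below them for 2, RPL36A and RPL7L1, against 28.2%.

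Hypoxia 2 and hypoxia 3 stood far above hypoxia 1 in these genes. On log2(CPM + 0.5), the median gene stood 0.28 above its control mean in hypoxia 1, 1.64 in hypoxia 2 and 1.32 in hypoxia 3. Without hypoxia 2 and 3, 0 genes were called higher and 1 lower (over all genes 0.283% higher and 0.23% lower), 29 of 81 had an unadjusted p under 0.05, and the median was 0.27. In hypoxia 1 alone 75 of the 81 genes lay above all 3 control libraries, against 35.7% of all genes, and 5 lay below, against 35.6%. When only the control and hypoxia libraries entered the edgeR fit, 0 genes passed in either direction (0% of all genes in both). In that fit 76 had an unadjusted p under 0.05, and the median stayed at 1.19. Shares of all genes at an unadjusted p are not given, here or below, so such counts cannot be set against all genes. DESeq2 on all 12 libraries called 76 higher and 2 lower (over all genes 30.5% and 29.7%).

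**Figure D2:**
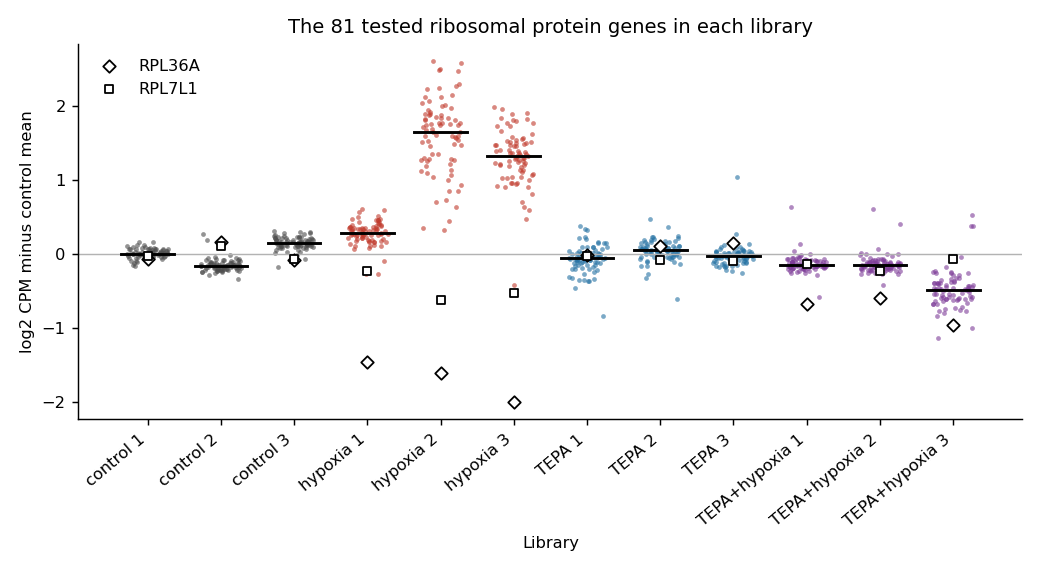
Level of each of the 81 tested ribosomal protein genes in each library as log2(CPM + 0.5) minus its mean over the 3 control libraries (y axis); small points are genes, black bars are library medians, and RPL36A and RPL7L1 are marked. The medians are 0.28, 1.64 and 1.32 in the hypoxia libraries, and RPL36A lies far below the other genes in all 3 of them.

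The highest values were those of RPL36, RPLP2 and RPS21. RPL36, of the large subunit (chr19:5674947-5691876, + strand, GENCODE 29 on GRCh38, as for the genes below), stood at 261, 225 and 335 CPM in control and at 407, 1611 and 1069 CPM in hypoxia. It was at 310.0, 306 and 267 CPM in TEPA and at 251, 252 and 176 CPM in TEPA+hypoxia. Every hypoxia library was above every other library, and the TEPA+hypoxia libraries lay below the TEPA libraries. RPL36 rose in hypoxia by 1.91 ± 0.38 (log2 fold change ± SE; edgeR adjusted p = 0.00601), and stood at 0.57 ± 0.20 without hypoxia 2 and 3 (edgeR adjusted p = 0.141). RPS21, of the small subunit (chr20:62387116-62388520, + strand), stood at 139, 129.6 and 183 CPM in control, 226, 831 and 554 CPM in hypoxia, 167, 152 and 152 CPM in TEPA, and 128, 129 and 95.1 CPM in TEPA+hypoxia. It rose by 1.84 ± 0.35 (edgeR adjusted p = 0.00601), and stood at 0.59 without hypoxia 2 and 3 (edgeR adjusted p = 0.11). Here too the hypoxia libraries did not overlap with any other group.

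The stalk genes rose by unequal amounts. RPLP2 (chr11:809647-812880, + strand) stood at 336, 300.2 and 429.9 CPM in control, 480.5, 2137 and 1358 CPM in hypoxia, 373, 375 and 346 CPM in TEPA, and 328, 311 and 229.9 CPM in TEPA+hypoxia. It rose by 1.90 ± 0.39, and its partner RPLP1 (chr15:69452784-69456194, + strand) by 1.65 ± 0.34 (edgeR adjusted p = 0.00601 for both). RPLP0 (chr12:120196686-120201235, − strand), the scaffold that anchors both, stood at 2168, 1879.6 and 2217 CPM in control and at 2272, 4987 and 4254 CPM in hypoxia. RPLP0 rose by 0.88 ± 0.23 (edgeR adjusted p = 0.00897), and hypoxia 1 was only slightly above the highest control library. Corrected for transcript length and GC content, RPLP0 stood at 0.30 and was no longer called (edgeR adjusted p = 0.0604). None of the 3 stalk genes was called without hypoxia 2 and 3: RPLP2 stood at 0.43, RPLP1 at 0.42 and RPLP0 at 0.12 (edgeR adjusted p = 0.192, 0.164 and 0.61).

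RPL5 and RPL11 join the 5S rRNA in a particle that also binds MDM2, the ubiquitin ligase of p53. RPL11 (chr1:23691742-23696835, + strand) stood at 529, 491 and 588 CPM in control and at 679.8, 1815 and 1399.7 CPM in hypoxia, and rose by 1.28 ± 0.26 (edgeR adjusted p = 0.00601). RPL5 (chr1:92831983-92841924, + strand) stood at 614, 587 and 631 CPM in control and at 655, 991 and 942 CPM in hypoxia, and rose by 0.50 ± 0.14 (edgeR adjusted p = 0.0119). The RPL5 call was lost in 2 of the 12 fits that each left out 1 library. RPS6, the small subunit protein that S6 kinase phosphorylates, rose by 0.78 ± 0.19 (edgeR adjusted p = 0.00724). RPS27A, made as a fusion with ubiquitin, rose by 1.20 ± 0.29 (edgeR adjusted p = 0.00717). RPS19, the gene most often mutated in Diamond-Blackfan anaemia, rose by 1.69 ± 0.36 (edgeR adjusted p = 0.00601). These 5 genes were not called without hypoxia 2 and 3, with RPL11 at 0.34, RPL5 at 0.10, RPS6 at 0.21, RPS27A at 0.25 and RPS19 at 0.36 (edgeR adjusted p = 0.122, 0.586, 0.356, 0.449 and 0.28).

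RPSA, RPL7A and RPL23A were among the genes with smaller positive values, as were RPL5, RPS28 and RPS29. RPSA, also known as the laminin receptor (chr3:39406689-39412542, + strand), stood at 882, 802 and 861 CPM in control and at 894, 1058 and 1174 CPM in hypoxia. It rose by 0.30 ± 0.11 (edgeR adjusted p = 0.0392), a call that held in 3 of the 12 fits without 1 library and reversed to -0.06 with the correction for length and GC content (edgeR adjusted p = 0.507). RPSA stood at 0.07 without hypoxia 2 and 3 (edgeR adjusted p = 0.698). RPL7A (0.45 ± 0.22, edgeR adjusted p = 0.0906) and RPL23A (0.60 ± 0.35, edgeR adjusted p = 0.156) did not pass, and hypoxia 1 was the lowest of the control and hypoxia libraries for both. RPS28 (0.69 ± 0.29, edgeR adjusted p = 0.0614) and RPS29 (0.25 ± 0.46, edgeR adjusted p = 0.648) did not pass either.

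**Figure D3:**
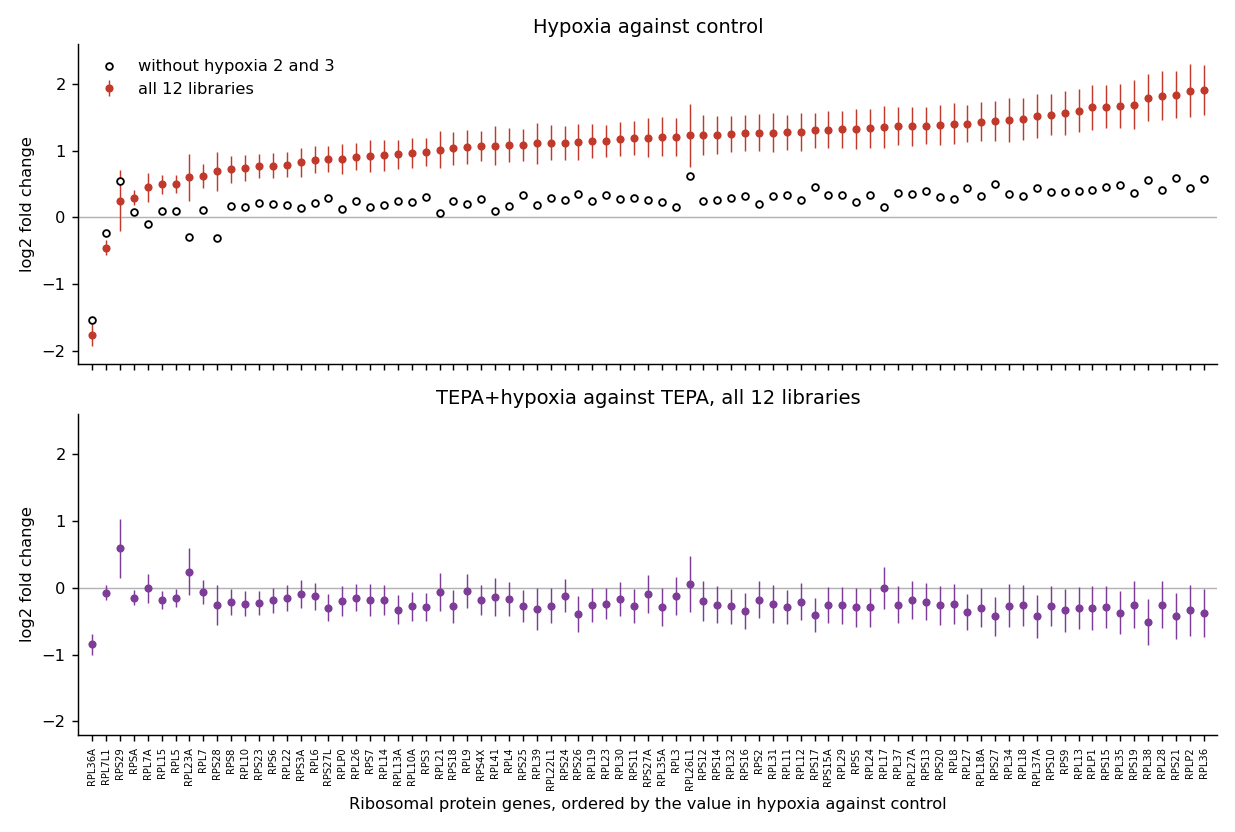
log2 fold change (y axis) of the 81 tested ribosomal protein genes, ordered by the value in hypoxia against control (x axis), for hypoxia against control (top) and TEPA+hypoxia against TEPA (bottom); filled points are the fit on all 12 libraries with its SE, and open points in the top panel are the same contrast without hypoxia 2 and 3. The filled points run from -1.76 to 1.91 in the top panel, with median 1.20, while the open points have median 0.27; the bottom panel runs from -0.85 to 0.59 with median -0.25.

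RPL36A went the other way in all 3 hypoxia libraries. This gene of the large subunit (chrX:101390824-101396154, + strand) had 355, 341 and 279 counts in control and 92, 72 and 44 counts in hypoxia. It had 433, 322 and 322 counts in TEPA and 181, 197 and 156 counts in TEPA+hypoxia. In CPM it fell from 17.3 ± 1.79 to 5.05 ± 1.04 in hypoxia, and stood at 18.2 ± 1.11 in TEPA and 10.1 ± 1.36 in TEPA+hypoxia (SD, n = 3). The libraries at 1% oxygen did not overlap with those at normal oxygen, with or without TEPA. The log2 fold change in hypoxia was -1.76 ± 0.17 (edgeR adjusted p = 0.00185). It was -1.54 ± 0.21 without hypoxia 2 and 3 (edgeR adjusted p = 0.00778), and between -1.92 and -1.63 when any 1 library was left out, with the call kept in all 12 such fits. When only the 2 groups were fitted it stood at -1.77 and just missed the threshold (edgeR adjusted p = 0.0582). In TEPA+hypoxia against TEPA it stood at -0.85 ± 0.16 and did not pass (edgeR adjusted p = 0.113), but it was called without hypoxia 2 and 3 (-0.83 ± 0.13, edgeR adjusted p = 0.00504) and with those 2 groups alone (-0.83, edgeR adjusted p = 0.0080).

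Rows that share its locus or sequence were compared with it. The read-through row RPL36A-HNRNPH2, which joins RPL36A to its neighbour, had 447, 303 and 378 counts in control and 370, 787 and 526 in hypoxia, a log2 fold change of 1.11 ± 0.25 (edgeR adjusted p = 0.00646). The pseudogene RPL36AP42, which held more counts than RPL36A itself, had 3322, 2314 and 2791 counts in control and 2940, 7762 and 4857 in hypoxia, and rose by 1.42 ± 0.29 (edgeR adjusted p = 0.00601). The neighbouring gene HNRNPH2, which encodes an RNA-binding protein, fell by 0.67 on the log2 scale in hypoxia against control (edgeR adjusted p = 0.0188). Hypoxia 2 and 3 stood at 74.2 and 84.5 CPM. Hypoxia 1, at 150 CPM, lay within the control range of 149 to 177 CPM. RPL36A fell while its read-through and pseudogene rows rose in the same comparison. In hypoxia 1 alone the read-through row stood at 23.9 CPM (17.2 to 21.9 CPM in control) and RPL36AP42 at 190.2 CPM (131 to 162 CPM in control). Since reads of these rows can be exchanged by the counting, the level of RPL36A mRNA is uncertain.

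**Figure D4:**
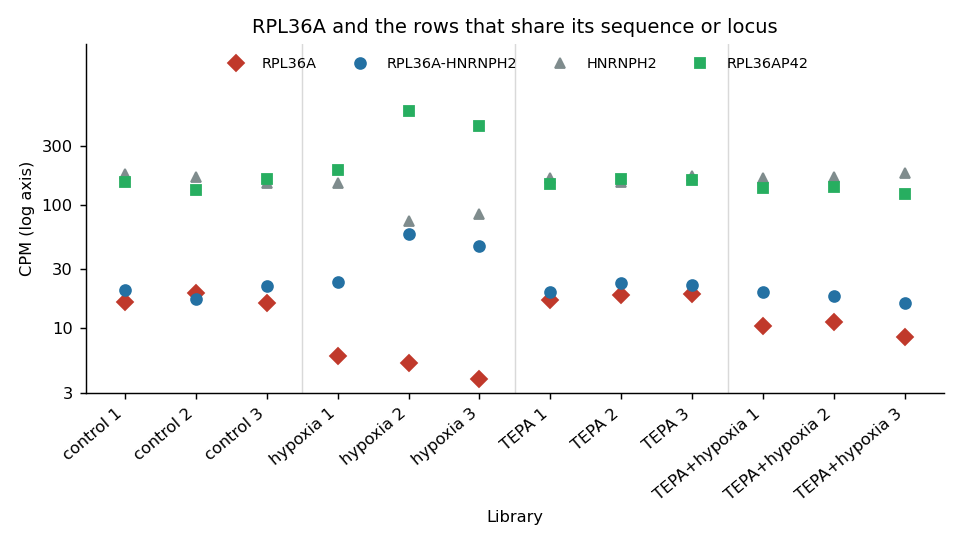
CPM (log axis) of RPL36A, the read-through row RPL36A-HNRNPH2, the neighbour HNRNPH2 and the pseudogene RPL36AP42 in each of the 12 libraries (x axis); each point is 1 library. RPL36A lies between 16.2 and 19.4 CPM in control and between 3.92 and 5.95 CPM in hypoxia, where RPL36AP42 is at its highest in hypoxia 2 and 3.

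Paralogs were compared with their parents. RPL7L1 (chr6:42879618-42889925, + strand) fell by 0.45 in hypoxia against control (SE 0.11, edgeR adjusted p = 0.00749), from 146, 161 and 142 CPM to 127, 96.5 and 104 CPM, while RPL7 rose by 0.62 ± 0.18 (edgeR adjusted p = 0.0153). Without hypoxia 2 and 3 RPL7L1 stood at -0.23 and was not called (edgeR adjusted p = 0.188), and with the correction for length and GC content it turned to 0.33 and was called higher (edgeR adjusted p = 0.0199). RPS27L, a p53 target, rose by 0.88 ± 0.20 (edgeR adjusted p = 0.00651) and RPS27 by 1.44 ± 0.30 (edgeR adjusted p = 0.00601). RPL22L1 rose by 1.12 ± 0.26 (edgeR adjusted p = 0.00661), and RPL22, which binds the RPL22L1 transcript, by 0.79 ± 0.19 (edgeR adjusted p = 0.00737). RPL26L1 was called at 1.23 ± 0.47 (edgeR adjusted p = 0.0428) from 8 to 25 counts a library, and the call held in 3 of the 12 fits without 1 library. The calls of these 6 genes were lost without hypoxia 2 and 3: RPL7 stood at 0.12, RPS27L at 0.28, RPS27 at 0.49, RPL22L1 at 0.30, RPL22 at 0.19 and RPL26L1 at 0.62 (edgeR adjusted p = 0.695, 0.294, 0.162, 0.347, 0.402 and 0.576). The differences between paralog and parent were not tested.

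No ribosomal protein gene passed the test for TEPA at normal oxygen. In TEPA against control 0 of 81 genes were called in either direction (0% of all genes), 0 had an unadjusted p under 0.05, and the median was -0.02. DESeq2 and limma-voom called 0 as well. The values ran from -0.46 ± 0.35 for RPL23A to 0.96 ± 0.46 for RPL26L1. RPS26 stood at 64.0, 55.0 and 74.3 CPM in control and at 83.1, 88.5 and 76.9 CPM in TEPA, a difference of 0.36 ± 0.27 (edgeR adjusted p = 1). The groups did not overlap for RPS26, which is also among the families with most counts on pseudogene rows.

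In TEPA+hypoxia against TEPA the ribosomal protein genes leaned lower. The median was -0.25 (all genes 0.00), and 78 of 81 values were negative. By edgeR 0 genes were called higher or lower (over all genes 0.0623% and 0.0346%), and 1 had an unadjusted p under 0.05. DESeq2 called 0 higher and 1 lower (over all genes 0.637% and 0.367%). The fit on these 2 groups alone called 0 higher and 4 lower (over all genes 1.47% and 1.07%), and the fit without hypoxia 2 and 3 called 0 higher and 2 lower (1.32% and 0.842%). All 3 TEPA+hypoxia libraries lay below all 3 TEPA libraries for 50 of 81 genes, against 18% of all genes, and above them for 0, against 12.5%. After RPL36A, the lowest were RPL38 and RPS27. RPL38, required for translation of a subset of Hox mRNAs, stood at 229, 201 and 184 CPM in TEPA and at 148, 156 and 127 CPM in TEPA+hypoxia (-0.51 ± 0.34, edgeR adjusted p = 0.798). RPS27 stood at 133, 156 and 129 CPM and at 113, 111 and 85.6 CPM (-0.43 ± 0.29, edgeR adjusted p = 0.799). TEPA+hypoxia 3 was the lowest library for each. The median gene stood 0.49 below its control mean in TEPA+hypoxia 3, and 0.15 and 0.16 below in TEPA+hypoxia 1 and 2. Without TEPA+hypoxia 3 the median difference from TEPA was -0.14.

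In TEPA+hypoxia against hypoxia, 76 genes were lower and 2 higher, with a median of -1.45 (over all genes 30.6% lower and 30.9% higher). This comparison shares its hypoxia libraries with hypoxia against control. RPL36 stood at -2.18 ± 0.38, RPLP2 at -2.19 ± 0.40 and RPS21 at -2.19 ± 0.36 (edgeR adjusted p = 0.00217 for each). RPL36A was higher by 0.99 ± 0.17 (edgeR adjusted p = 0.00217) and RPL7L1 by 0.31 ± 0.11 (edgeR adjusted p = 0.0317). Set against hypoxia 1 alone, 50 genes were lower and 1, RPL36A, was higher (over all genes 7.17% and 7.98%), with a median of -0.53. In that fit RPL36 stood at -0.83 ± 0.20 (edgeR adjusted p = 0.0225), RPLP2 at -0.72 ± 0.19 (edgeR adjusted p = 0.0268), RPL7L1 at 0.09 ± 0.10 (edgeR adjusted p = 0.552), RPS21 at -0.94 ± 0.18 (edgeR adjusted p = 0.0179) and RPL38 at -0.89 ± 0.16 (edgeR adjusted p = 0.0178). The lone hypoxia library was assumed to vary like the other groups.

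The interaction, which subtracts the hypoxia response of untreated cells from that of TEPA-treated cells, was called lower for 73 genes and higher for RPL36A (over all genes 21.5% lower and 17.3% higher), with a median of -1.41. RPL38 stood at -2.31 ± 0.49, RPL36 at -2.29 ± 0.52, RPS21 at -2.26 ± 0.49, RPLP2 at -2.23 ± 0.55 and RPL36A at 0.92 ± 0.23 (edgeR adjusted p = 0.0236 for each). No gene was called without hypoxia 2 and 3 (0% of all genes in either direction, edgeR), where 54 of 81 had an unadjusted p under 0.05 and the median was -0.51. In that fit RPL38 stood at -1.05, RPL36 at -0.93, RPS21 at -0.99, RPLP2 at -0.75 and RPL36A at 0.70 (edgeR adjusted p = 0.0643, 0.0697, 0.0654, 0.0805 and 0.0954). The count was also 0 without control 1, without control 2, without hypoxia 3, without TEPA 2 and without TEPA+hypoxia 3. In each of those fits 72 to 76 genes had an unadjusted p under 0.05, again without the share of all genes.

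To see which genes moved more or less than the family, each library was also scaled by its summed counts on these 85 genes. This scaling moved the median of all tested genes to -0.97 in hypoxia against control and to 1.24 in TEPA+hypoxia against hypoxia, and it leaves the median ribosomal protein gene near 0. In hypoxia against control 12 genes then lay above the family and 10 below (over all genes 1.68% higher and 58.7% lower). RPL36 (0.65 ± 0.17), RPLP2 (0.62 ± 0.18) and RPS21 (0.59 ± 0.16) lay above it, each at an edgeR adjusted p of 0.0306. RPL36A (-2.70 ± 0.40), RPL7L1 (-1.35 ± 0.39) and RPL7A (-0.65 ± 0.18) lay below it at the same edgeR adjusted p, and RPSA at -0.72 ± 0.23 (edgeR adjusted p = 0.0312). In TEPA+hypoxia against hypoxia 16 lay above and 17 below (over all genes 77.6% higher and 1.29% lower). The other contrasts gave 0 calls among these genes by edgeR: TEPA+hypoxia against TEPA (0.00692% of all genes higher and 0.00692% lower, 0 genes with an unadjusted p under 0.05), TEPA against control (0% and 0%, 0 genes) and the interaction (0.0138% and 0%, 23 genes). limma-voom called 9 higher and 10 lower in the interaction. Its share over all genes is not given, so that count cannot be set against all genes. The 22 calls of hypoxia against control all fell to 0 without hypoxia 2 and 3, and also without control 1, control 2, hypoxia 2 or hypoxia 3 alone.

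The highest values were in short transcripts. The tested ribosomal protein genes had a median transcript length of 764 bases (median over each gene's annotated transcripts), against 2385 bases for the other tested genes with a length, at a similar GC content (49.6% for both). Among the 81 genes the change in hypoxia correlated with length at Spearman's rho = -0.50 and with GC content at 0.47. Over the 12556 tested genes with a length the values were -0.51 and 0.53 (across genes of the same libraries, a description only). Genes were also compared within classes of like length, which the plot of change against length shows. In the class that held most of them, the median change was 1.29 for 32 ribosomal protein genes and 0.83 for 519 other genes. In the next longer classes it was 1.11 for 22 against 0.72 for 690, and 0.87 for 14 against 0.52 for 1447. It was 1.65 for 7 against 0.14 for 403 in the shortest class, and 1.08 for 5 against 0.16 for 3553 in the longest class with more than 1 ribosomal protein gene. The other genes were all tested genes with a length, down to 47 bases. They were not limited to protein-coding genes, and pseudogene rows of this family were not removed from them. GC content was not matched in these classes, and the differences were not tested. Other genes of the longest class had a median of -0.62, near the -0.45 of RPL7L1, whose median transcript is 4122.5 bases long. RPL36A (691 bases) lay far from the other genes of its length. With a correction for length and GC content in the fit, 68 genes were higher and 1, RPL36A, was lower in hypoxia (over all genes 28.7% and 16.5%), and the median was 0.62.

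**Figure D5:**
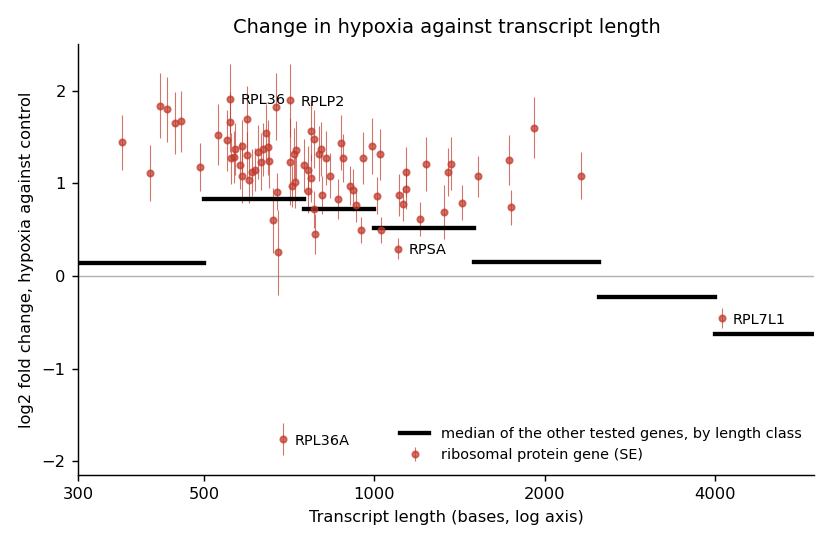
log2 fold change in hypoxia against control (y axis, with SE) of the 81 tested ribosomal protein genes against median transcript length (x axis, log scale); black bars are medians of the other tested genes within each length class. Ribosomal protein genes lie mostly above the bar of their class, RPL7L1 lies near it, and RPL36A lies far below.

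Genes with and without the pyrimidine run at the start were set side by side. The 54 tested genes that carry it had a median of 1.21 in hypoxia against control, with 51 called higher and 1 lower. The 12 that do not carry it had a median of 1.07, with 10 called higher and 1 lower. Over all genes 29.4% were called higher and 27.8% lower. Whether a gene is counted as carrying the run depends on its listed start. The medians in TEPA+hypoxia against TEPA were -0.26 and -0.15. These differences were not tested.

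Some components of the ribosome carry other symbols. FAU, which encodes the small subunit protein eS30 fused to a ubiquitin-like domain, stood at 229, 187 and 257 CPM in control and at 282, 853 and 681 CPM in hypoxia, and rose by 1.43 ± 0.30 (edgeR adjusted p = 0.00601). RACK1, the scaffold on the small subunit, rose by 1.02 ± 0.23 (edgeR adjusted p = 0.00636). FAU and RACK1 stood in TEPA+hypoxia against TEPA at -0.33 and -0.21 and were not called (edgeR adjusted p = 0.82 and 0.846). Without hypoxia 2 and 3 FAU stood at 0.33 and RACK1 at 0.22 in hypoxia against control (edgeR adjusted p = 0.241 and 0.317). Of the 145 tested pseudogene rows of this family, 112 rose and 2 fell in hypoxia (over all genes 29.4% and 27.8%). Their median was 1.20, with hypoxia 2 and 3 included.

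Other genes of ribosome assembly and translation were counted in the same way, against 29.4% of all genes called higher and 27.8% called lower. Of 10 translation elongation genes 4 rose and 3 fell in hypoxia (median 0.14). EEF1D, of the elongation factor complex that reloads eEF1A, rose by 1.45 ± 0.31 (edgeR adjusted p = 0.00601), and ETF1, the release factor, fell by 0.49 (SE 0.12, edgeR adjusted p = 0.00707), though with the correction for length and GC content it turned to 0.31. The TOP mRNAs EEF1A1 and EEF2 did not pass, at -0.15 ± 0.11 (edgeR adjusted p = 0.242) and 0.11 ± 0.09 (edgeR adjusted p = 0.299), and EEF1A1 turned to 0.54 with that correction. Of 30 tested initiation genes 10 rose and 8 fell (median 0.03), with EIF3G at 1.19 ± 0.25 and EIF3K at 1.22 ± 0.27 among those that rose (edgeR adjusted p = 0.00601 and 0.00618). Of 35 ribosome assembly genes 18 rose and 7 fell (median 0.36), among them BOP1 at 1.90 ± 0.41 and NOP10 at 1.15 ± 0.25 (edgeR adjusted p = 0.0061 and 0.00601). Of 19 genes of RNA polymerase I, which transcribes rRNA, 9 rose and 8 fell (median 0.14), with POLR2L at 1.81 ± 0.36 and UBTF at 1.22 ± 0.24 (edgeR adjusted p = 0.00601 for both).

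Of 16 tested genes in the control of ribosomal protein mRNA translation 4 rose and 8 fell in hypoxia (median -0.31), against the same 29.4% and 27.8% of all genes. EIF4EBP1, which encodes the mTORC1 target 4E-BP1, rose by 1.40 ± 0.28 (edgeR adjusted p = 0.00601). RPTOR, which encodes the mTORC1 subunit raptor, fell by 1.62 on the log2 scale (SE 0.32, edgeR adjusted p = 0.00601). LARP1 was listed at 0 to 0.235 CPM, so it was not tested. With the counting unknown, this need not mean that its mRNA was absent. Of 12 tested chaperones of ribosomal proteins and genes of the p53 surveillance pathway 6 rose and 1 fell (median 0.24), with RPS19BP1 at 1.78 ± 0.36 (edgeR adjusted p = 0.00601). By edgeR 0 members of these lists were called in TEPA+hypoxia against TEPA, with NIP7 of ribosome assembly at -0.26 ± 0.09 (edgeR adjusted p = 0.472). Without hypoxia 2 and 3, 0 members of these lists were higher and 1, the initiation gene EIF4H, was lower in hypoxia against control, and 1, the initiation gene EIF4A2, was higher in TEPA+hypoxia against TEPA. Both were named after their values were seen.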

How the data were processed

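Poly(A) RNA was sequenced from 12 libraries of EA.hy926 cells with a directional kit, per the labels' protocols. The authors deposited 1 table of raw counts per gene. HISAT2 2.1.0, the build GRCh38 and DESeq are named per the submitters' processing notes. Which program counted reads, with which annotation and strand setting, no source used here states. No column was left unmapped.

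Counts were fitted with edgeR 4.0.16 (R 4.3.3): TMM scaling, edgeR's default filter by group (14447 genes kept, with 99.9% of counts), 1 mean per group over all 12 libraries, quasi-likelihood F-tests, and Benjamini-Hochberg adjustment over all tested genes with calls under 0.05. A 2nd fit took the summed ribosomal protein counts as library size. DESeq2 1.42.0, limma-voom (limma 3.58.1), other scalings and filters, subsets of libraries, a replicate block, and a spline correction for transcript length and GC content (4 df) were alternatives. Lengths and gene positions came from GENCODE 29, which may not be the annotation the authors used, and start windows from RefSeq GRCh38.p14. The fit was tested on simulated data.

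Named genes were listed roles and paralogs, the 3 highest and 3 lowest changes of each pairwise contrast, the 2 highest and 2 lowest in the relative fit, the 5 highest and 3 lowest levels per length, and the 2 smallest p-values of each other list in both hypoxia contrasts. Members and lists were chosen with earlier results of these data known. Replicates differed by more than sampling noise (chi-square per gene 1.71 to 173), so each library was counted as 1 sample. Same-numbered libraries did not deviate together, so replicate numbers were not treated as pairs. Some items of the lists are not reported here.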

Additional observations from a re-analysis of the deposited data

Results flagged for a closer look

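The response to 1% oxygen differed between cells with and without TEPA by a test of the difference itself, the interaction term in edgeR. This held for 73 ribosomal protein genes that were lower and 1 that was higher (21.5% and 17.3% over all genes). Among the genes described, RPL38 stood at -2.31, RPL36 at -2.29, RPS21 at -2.26, RPLP2 at -2.23 and RPL36A at 0.92 on the log2 scale. Hypoxia 2 and hypoxia 3 move with this pattern, and their part in it was not tested beyond leaving them out, which left 0 genes called and a median of -0.51. The count was also 0 lower when control 1, control 2, hypoxia 3, TEPA 2 or TEPA+hypoxia 3 was left out.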

How the results depend on the processing

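Without hypoxia 2 and 3, hypoxia against control called 0 higher and 1 lower (median 0.27), TEPA+hypoxia against TEPA 0 and 2, TEPA+hypoxia against hypoxia 1 and 50 (median -0.53), and the interaction 0 and 0 (median -0.51). Relative to the family total it left 0 and 0 for hypoxia against control and 1 and 1 for TEPA+hypoxia against hypoxia. With only the 2 groups compared, hypoxia against control gave 0 and 0, TEPA+hypoxia against TEPA 4 lower and TEPA+hypoxia against hypoxia 1 higher. With no filter the last was also 1 higher. DESeq2 called 1 lower in TEPA+hypoxia against TEPA. limma-voom called 9 higher and 10 lower for the interaction relative to the family total. Counted with pseudogene rows, the TEPA share was 4.60%. Counts of calls in this section are given without shares of all genes. They show only how the calls moved between settings.

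With the length and GC correction, 1 gene was lower in hypoxia against control (median 0.62) and 1 higher in TEPA+hypoxia against hypoxia (median -0.78), and the interaction median was -0.75. With the replicate block and that correction the values were 1 (0.61), 1 (-0.77) and, for the interaction, 35 lower (-0.70). The replicate block alone left 74 higher and 2 lower in hypoxia against control, 67 lower in the interaction and 11 below the family total in TEPA+hypoxia against hypoxia. The correction, without and with the replicate block, reversed these values. In hypoxia against control RPL7L1 became 0.33 and 0.33, RPSA -0.063 and -0.064, EEF1A1 0.54 and 0.53, ETF1 0.31 and 0.31, and RRS1 -0.35 and -0.36. In TEPA+hypoxia against hypoxia RPL7L1 became -0.56 and -0.56, RPSA 0.021 and 0.022, ETF1 -0.52 and -0.52, and RRS1 0.30 and 0.31. In the interaction ETF1 became -0.52 and -0.52, and without the block RPL7L1 became -0.50 and EEF1A1 -0.74. The cause was not tested.

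When any 1 library was left out, hypoxia against control called 68 to 78 higher and 2 lower in each fit (median 0.86 to 1.47), TEPA+hypoxia against TEPA 0 to 1 lower, TEPA+hypoxia against hypoxia 1 to 2 higher and 74 to 77 lower, and the interaction 0 to 2 higher and 0 to 76 lower. Relative to the family total the ranges were 0 to 19 higher and 0 to 24 lower, 5 to 21 and 8 to 23 for TEPA+hypoxia against hypoxia, and 0 to 22 and 0 to 19 for the interaction. RPS29 and RPL26L1 had at most 15 and 25 counts a library, which limits their values.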
